A study of Arabidopsis thaliana with 40 samples.

Results

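Shoots of Arabidopsis thaliana, a small rosette plant of the mustard family, were compared after 6 days on water and before that period began. The treatment label names a water pretreatment of 6 days, and the protocol describes pots dipped at the base for the 20 mM ethanol plants, without saying how the water was given. The plants labelled W6d are called the water plants here, and those labelled BeforePretreatment, to which they are compared, the starting plants. Each group held 8 libraries, 16 of the 40 in the series. All plants grew in clay granule soil at 22 °C, with days of 16 h of light at 110 to 140 µmol photons and nights of 8 h. The starting plants were 14 days old, and the water plants were 6 days older. No mutant, transgene or chemical is named for either group, and the labels give no strain and no hour of harvest. The water plants are also the control of a group kept in 20 mM ethanol for the same 6 days, and both treatments have a counterpart harvested after freezing. Those groups entered the model of the spread, and the 6-day ethanol plants are quoted below for single genes. Water plants and starting plants differ in age, in days of the water treatment and possibly in the hour of harvest, and these cannot be told apart. Members of the comparison are all genes with enough counts, which left 16579 of the 27416 genes in the table.

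The circadian clock of Arabidopsis is a set of transcription factors that repress one another in turn over the day. LHY and CCA1 peak around dawn and repress evening genes through a promoter sequence called the evening element, while the evening genes, among them TOC1 and the ELF3, ELF4 and LUX complex, act back on the morning genes. Through clock-controlled promoters, this cycle sets when in the day genes of photosynthesis, starch, cold tolerance and growth are transcribed.

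Counts came from Lasy-Seq, a method that primes reverse transcription from the poly(A) tail and pools barcoded samples early, so that reads mark the 3′ part of transcripts. Library totals were 3693345 to 7285545 counts in the water plants and 2478955 to 7632149 counts in the starting plants. A count of 3 stood for 0.436 to 0.890 CPM, the usual scale of counts relative to library size, in the water libraries and for 0.413 to 1.23 CPM in the starting libraries, and these floors cover counting error only. Values below are CPM scaled by TMM factors, the normalization of edgeR. Water replicate 6 had the lowest mean correlation with its own group, 0.927, against 0.939 to 0.952 for the other water libraries and 0.941 to 0.961 for the starting libraries. In that library the 8 reference genes summed to 1729 CPM, against 1410.3 to 1729 CPM over all water libraries with a median of 1456 CPM and 1668 to 1832 CPM over the starting libraries, so that it lay within the starting range. Results that rest on it are given with and without it. Nothing in the labels says that the libraries of a group came from different plants, and the p-values then reflect only how much these samples vary, which may be technical. In whole shoots, fewer cells of a type and less RNA per cell cannot be told apart.

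The shoot label was set against markers of other organs. Of 10 root markers, 3 passed the filter on low counts, and the summed root markers stood at 31.3 to 62.4 CPM in the water plants (median 43.0) and at 83.6 to 141 CPM in the starting plants (median 117). CASP2 and COBL9, made in the root endodermis and in root hairs, were at 0 in all 16 libraries. PYK10, a root and hypocotyl beta-glucosidase, was the 1 root marker called, at 19.1 to 45.4 CPM in water plants (median 30.7), against 64.2 to 125 CPM in starting plants (median 94.7), and 2 were called lower without water replicates 6 and 7. Their part in the results below was not tested. The 5 flower markers summed to 1.6 to 9.15 CPM in water plants and 2.35 to 6.91 CPM in starting plants. The 4 shoot meristem markers summed to 5.53 to 13.0 CPM in water plants and 3.45 to 11.4 CPM in starting plants, with none called of 2 tested. The 4 leaf mesophyll markers summed to 47233 to 54539 CPM in water plants and 52153 to 61430 CPM in starting plants, with the lowest value in water replicate 6, and 2 were called lower and none higher (1 higher without starting replicate 1, 2 or 6 or water replicate 2, 6 or 7).

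After 6 days on water, 4067 of 16579 genes differed at an adjusted p under 0.05 in edgeR's quasi-likelihood test. This was 24.5% of the genes tested, 1991 higher (12%) and 2076 lower (12.5%). Among called genes the median size of change was 0.62 on the log2 scale. At least 2-fold differences were called in 617 genes higher (3.72%) and 466 genes lower (2.81%). In 666 genes (4.02%) every water library lay above every starting library, and in 753 (4.54%) every one lay below, 8.56% in all. The median log2 fold change of all genes was -0.01. Counts in the gene lists below are to be read against these shares.

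Morning genes of the clock stood lower and evening genes higher in the water plants. Of 13 tested genes in the morning list 10 were lower and 2 higher, with a median log2 fold change of -1.62. Of 14 tested evening genes 12 were higher and none lower, with a median of 2.23. LNK3, one of a small family of coactivators that work with the RVE proteins, was counted at 10.7 to 17.6 CPM in water plants (median 14.6), against 72.0 to 104 CPM in starting plants (median 89.0). All 8 water libraries lay below all 8 starting libraries, and the log2 fold change was -2.62 ± 0.12 (± is the SE throughout; edgeR adjusted p = 8.2e-25). LNK4 followed it, at 13.7 to 20.2 CPM in water plants (median 16.8), against 69.7 to 92.5 CPM in starting plants (median 77.7), a change of -2.17 ± 0.14. LNK2 stood at 9.54 to 25.5 CPM in water plants (median 23.4), against 50.2 to 75.5 CPM in starting plants (median 65.0), a change of -1.62 ± 0.13, with its lowest value in water replicate 6. RVE8, a MYB-like activator of afternoon and evening genes, stood at 0.742 to 3.86 CPM in water plants (median 1.98), against 12.8 to 18.9 CPM in starting plants (median 15.7), and RVE1, which links the clock to auxin synthesis, at 0.622 to 2.67 CPM in water plants (median 1.54), against 7.24 to 20.01 CPM in starting plants (median 14.5). The groups did not overlap for either, with log2 fold changes of -2.87 ± 0.28 and -3.28 ± 0.36. LHY itself fell the furthest of the list, to 0.686 to 3.52 CPM in water plants (median 1.85) against 26.5 to 38.7 CPM in starting plants (median 33.4). PRR7, a repressor of LHY and CCA1 that follows them in the morning, went the other way, at 31.4 to 43.2 CPM in water plants (median 37.5), against 20.5 to 26.5 CPM in starting plants (median 23.9) (log2 fold change 0.62 ± 0.10, edgeR adjusted p = 1.2e-06).

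Several evening genes were higher in the water plants and low in the starting plants. FKF1, a blue-light photoreceptor that marks CDF repressors for degradation, was counted at 17.36 to 36.5 CPM in water plants (median 26.0), against 1.63 to 4.14 CPM in starting plants (median 2.41). The difference was 3.36 ± 0.17 on the log2 scale (edgeR adjusted p = 4.9e-23), with no overlap. LUX, the DNA-binding subunit of the evening complex, stood at 19.3 to 36.3 CPM in water plants (median 27.7), against 1.86 to 7.60 CPM in starting plants (median 3.23), a change of 2.74 ± 0.18, and its partner ELF4 at 30.5 to 51.8 CPM in water plants (median 41.0), against 1.63 to 4.01 CPM in starting plants (median 2.89). GI, a scaffold that steadies FKF1 and ZTL in the light, rose to 11.6 to 26.9 CPM in water plants (median 23.3), against 5.92 to 9.44 CPM in starting plants (median 6.98) (log2 fold change 1.59 ± 0.12). PRR3, a pseudo-response regulator, rose by 3.24 ± 0.31, and 1 starting library held no count of it. CHE, a TCP factor that binds the CCA1 promoter, was higher by 0.77 ± 0.08, and its 8 water libraries, at 99.9 to 124 CPM, lay above the starting range of 54.7 to 76.1 CPM. The libraries of 11 of the 14 evening genes and of 8 of the 13 morning genes did not overlap in the direction of their list, against 4.02% and 4.54% of all genes.

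Among outputs of the clock, genes known to peak in the morning stood lower and evening ones higher. Of 12 tested genes in that list 10 were lower and 2 higher. COL2, a relative of CONSTANS, stood at 2.02 to 11.9 CPM in water plants (median 6.61), against 61.7 to 90.8 CPM in starting plants (median 74.4), and COL1 at 4.57 to 11.4 CPM in water plants (median 7.02), against 29.2 to 35.9 CPM in starting plants (median 31.8). Both sets of water libraries lay under every starting library, with log2 fold changes of -3.39 ± 0.20 and -2.19 ± 0.19. CDF1, CDF2 and CDF3, DOF factors that repress CONSTANS in the morning, changed by -1.46 ± 0.15, -2.30 ± 0.34 and -0.80 ± 0.10. BBX18 and BBX19, B-box proteins of seedling light growth and flowering time, fell by 1.83 and 2.21 on the log2 scale. The RNA-binding proteins GRP7 and GRP8, which peak in the evening and regulate their own splicing, were also measured. GRP7 stood at 2243 to 3053 CPM in water plants (median 2453), against 223.3 to 389 CPM in starting plants (median 278), and GRP8 at 613 to 801 CPM in water plants (median 731), against 226.2 to 270.5 CPM in starting plants (median 256). The sets were apart by more than 5-fold in the closest GRP7 libraries and by more than 2-fold in the closest GRP8 libraries.

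**Figure D1:**
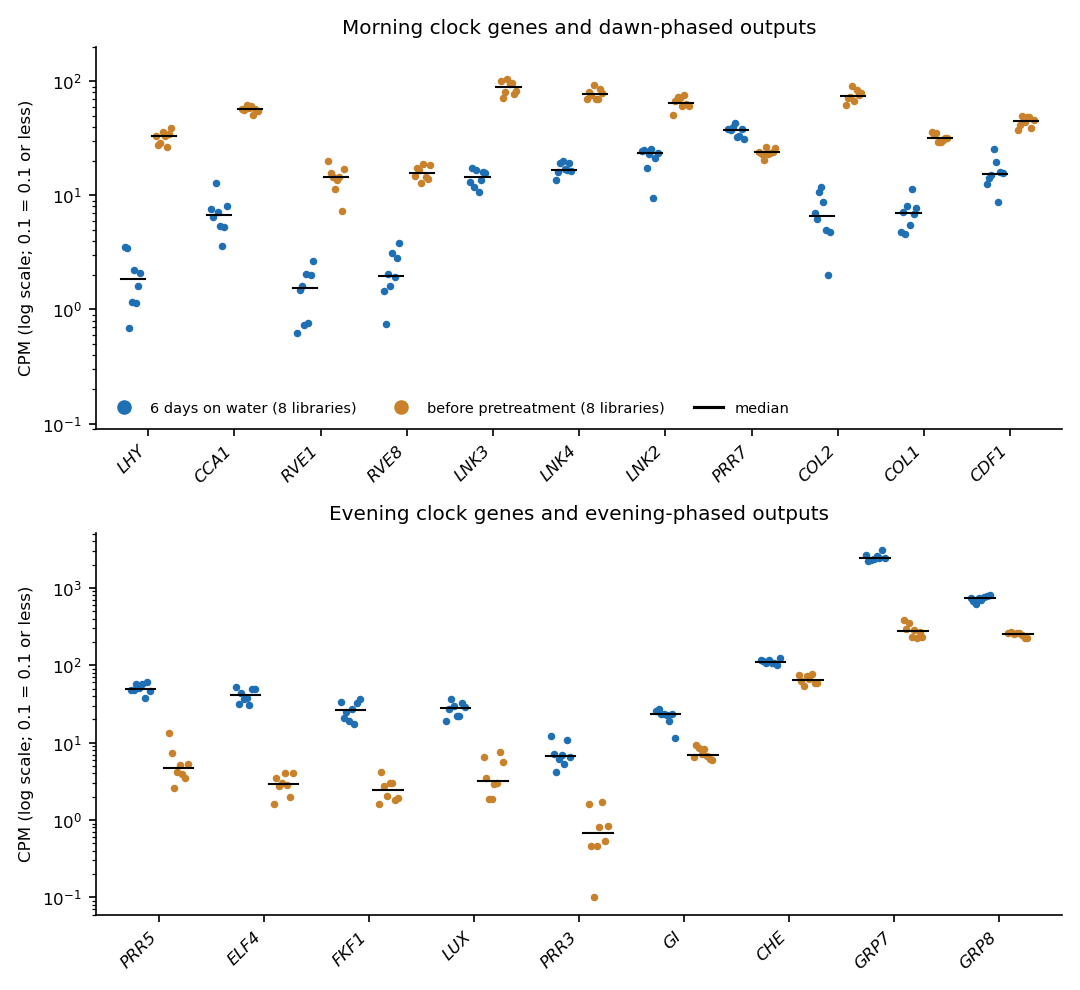
CPM on a log axis in each of the 8 water libraries (blue, left) and 8 starting libraries (orange, right) for morning genes with dawn outputs (upper panel) and evening genes with evening outputs (lower panel), with the median of each group as a bar. In the upper panel all genes but PRR7 have their blue points below their orange points, and in the lower panel every blue point is above every orange point of its gene.

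Promoter sequences are shown for genes with the evening element, AAAATATCT, the sequence through which LHY and CCA1 act. They are the 4 that hold it among the 15 genes with the highest fold changes. The others of these 15 do not hold it, and among the 15 genes with the lowest fold changes COL2 alone does. The windows hold the 250 bases before the RefSeq gene start, in the TAIR10.1 assembly and on the strand of the gene, with matches to the motif on either strand in capitals. PRR5 lies on the minus strand, with its window at chr5:8358547-8358796 and 1 match that begins 187 bases before the start. FKF1 lies on the plus strand at chr1:25508389-25508638, with 1 match 186 bases before the start. GRP7 is on the minus strand at chr2:9266558-9266807 and holds 3 matches, which begin 76, 55 and 31 bases before the start. PORA, which makes protochlorophyllide oxidoreductase A, is on the minus strand at chr5:21992815-21993064, with 1 match 180 bases before the start.
PRR5: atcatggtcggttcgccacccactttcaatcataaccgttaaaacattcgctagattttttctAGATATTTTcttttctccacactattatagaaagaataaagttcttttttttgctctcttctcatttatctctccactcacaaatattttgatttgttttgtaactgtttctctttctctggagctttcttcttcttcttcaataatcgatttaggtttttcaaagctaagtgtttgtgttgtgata
FKF1: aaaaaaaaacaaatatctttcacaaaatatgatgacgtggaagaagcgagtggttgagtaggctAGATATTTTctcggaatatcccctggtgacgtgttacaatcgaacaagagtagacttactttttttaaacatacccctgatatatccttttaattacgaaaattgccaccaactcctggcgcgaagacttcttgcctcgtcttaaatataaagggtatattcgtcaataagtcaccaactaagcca
GRP7: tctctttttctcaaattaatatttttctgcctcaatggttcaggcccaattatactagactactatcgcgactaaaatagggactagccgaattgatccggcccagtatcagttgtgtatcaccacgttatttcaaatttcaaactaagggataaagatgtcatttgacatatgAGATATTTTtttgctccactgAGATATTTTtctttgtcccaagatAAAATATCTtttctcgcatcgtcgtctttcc
PORA: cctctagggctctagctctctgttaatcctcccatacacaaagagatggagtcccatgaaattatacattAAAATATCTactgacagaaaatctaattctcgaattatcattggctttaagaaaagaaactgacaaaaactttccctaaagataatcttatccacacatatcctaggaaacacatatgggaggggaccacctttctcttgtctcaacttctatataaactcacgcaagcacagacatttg

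The evening element was held by 2.63% of the 16416 tested genes with a window. Its share was 7.62% among genes called higher, 11.9% among genes at least 2-fold higher and 20.5% among genes at least 4-fold higher, which is 27 of 132. Among genes called lower it was 1.77%, and among genes at least 4-fold lower 3.06%, or 3 of 98. Seen the other way, 151 of the 432 genes with the motif were called higher (35%) and 36 lower (8.33%), and their median log2 fold change was 0.23. The CCA1-binding site AAAAATCT, which differs in its letters and is searched on its own, was spread more evenly, at 6.99% of all windows, 8.12% of genes called higher and 6.79% of genes called lower. Among tested genes of the evening clock list TOC1, LUX, PRR5, FKF1 and COR27 hold the evening element, and RVE7 is the only morning gene with it. These matches are a description of the letters in the window.

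G-boxes, CACGTG, and the core of the drought-responsive element, CCGAC, showed other shares. The G-box was held by 7.37% of windows, by 15.9% of genes at least 4-fold higher and by 17.3% of genes at least 4-fold lower. Of the 15 genes with the lowest fold changes 5 hold one, which are LHY, CCA1, RVE1, ELIP1 and BBX30. Of the 15 genes with the highest fold changes 3 hold one, which are AT2G38465, PR2 and AT4G33467. The rank of PR2 rests on water replicate 6, at 511 CPM, and its medians were 7.58 CPM in water plants and 7.40 CPM in starting plants. The core CCGAC was held by 13.3% of all windows, 22% of genes at least 4-fold higher and 13.3% of genes at least 4-fold lower. The telo-box AAACCCTA, common in promoters of ribosomal protein genes, was held by 3.58% of windows, 2.37% of genes called higher and 4.23% of genes called lower. LHY is on the minus strand with its window at chr1:37872-38121 and its G-box 80 bases before the start, and ELIP1 is on the minus strand at chr3:8085670-8085919 with a G-box 66 bases before the start. COR15A, which encodes a chloroplast protein made in the cold, is on the minus strand at chr2:17712331-17712580 with CCGAC cores 142 and 79 bases before the start.
LHY: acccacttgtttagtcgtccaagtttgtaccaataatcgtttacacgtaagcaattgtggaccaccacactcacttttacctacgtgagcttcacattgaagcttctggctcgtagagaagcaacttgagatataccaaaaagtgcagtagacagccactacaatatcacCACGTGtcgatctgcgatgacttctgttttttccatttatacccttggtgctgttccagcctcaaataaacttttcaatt
ELIP1: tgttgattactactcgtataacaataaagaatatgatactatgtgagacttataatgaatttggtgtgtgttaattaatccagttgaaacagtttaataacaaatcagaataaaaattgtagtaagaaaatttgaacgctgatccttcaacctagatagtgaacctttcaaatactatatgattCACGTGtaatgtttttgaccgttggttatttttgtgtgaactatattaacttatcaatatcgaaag
COR15A: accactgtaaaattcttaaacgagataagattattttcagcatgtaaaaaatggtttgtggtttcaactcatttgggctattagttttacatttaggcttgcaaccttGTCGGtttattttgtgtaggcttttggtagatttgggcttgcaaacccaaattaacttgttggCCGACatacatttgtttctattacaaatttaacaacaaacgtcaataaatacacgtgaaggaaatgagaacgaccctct

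**Figure D2:**
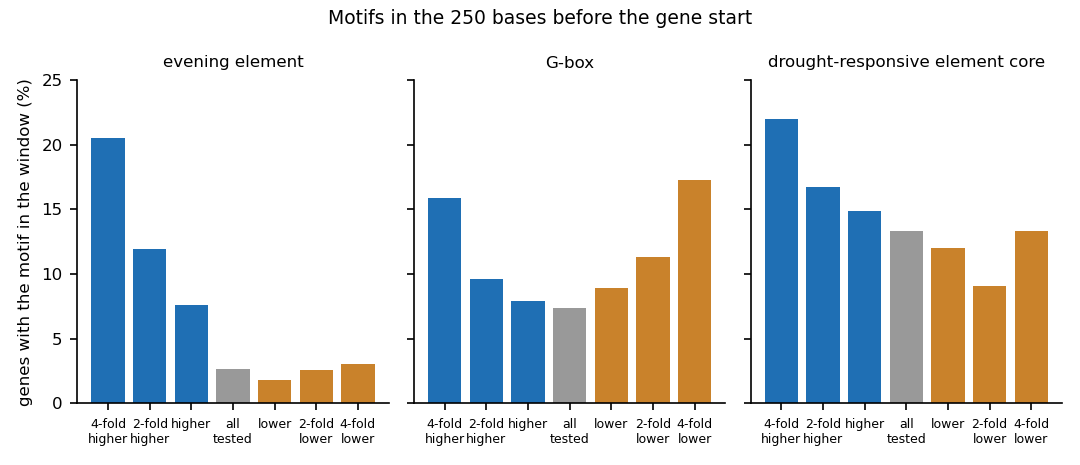
Share of genes (%) with the evening element, the G-box or the drought-responsive element core in the 250 bases before the gene start, by direction and size of the called change (blue, higher in water plants; grey, all tested genes; orange, lower; 2-fold and 4-fold mean at least that size). The evening element bars climb from 2.63% of all genes to 20.5% of genes at least 4-fold higher, and the lower classes stay between 1.77% and 3.06%.

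Cold-regulated effectors were mostly higher, and neither group carries the freezing label. Of 15 tested genes 13 were higher and 1 lower, with a median log2 fold change of 2.03. KIN2, a small cold- and ABA-inducible protein, was counted at 852 to 1791 CPM in water plants (median 1431), against 162 to 247 CPM in starting plants (median 198). RCI2A, a hydrophobic plasma membrane protein, stood at 568 to 810.3 CPM in water plants (median 707), against 104 to 147 CPM in starting plants (median 127). COR413-PM1, another plasma membrane protein of the cold response, was at 617 to 929 CPM in water plants (median 818), against 161 to 224.2 CPM in starting plants (median 196). These sets did not overlap, with log2 fold changes of 2.79 ± 0.19, 2.44 ± 0.10 and 2.03 ± 0.11. COR413IM1, its counterpart in the chloroplast envelope, rose by 2.65 ± 0.20, and the dehydrin COR47 by 1.496 ± 0.14. RD29A, which responds to drought, salt and cold, ranged wider among water libraries, at 47.3 to 174 CPM in water plants (median 114), against 18.9 to 31.3 CPM in starting plants (median 24.0). COR15A and COR15B rose by 2.98 ± 0.32 and 3.37 ± 0.24, but they are related copies and reads could be split between them, which was not tested. The CCGAC core stands in the windows of 7 of the 15 genes, 6 of them called higher (COR15A, RD29A, COR413-PM1, RCI2A, LTI30 and GolS3) and SFR2 called lower.

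Cold transcription factors changed less evenly, with 8 of 17 higher, 1 lower and a median of 0.55. Their mean log2 CPM was 3.76, 3.65 and 4.05 in water replicates 6, 7 and 8 and 3.20 to 3.38 in water replicates 1 to 5. The starting libraries stood at 2.65 to 2.86. CBF1, CBF2 and CBF3, the activators that bind the CCGAC core, were all called higher. CBF1 stood at 0.873 to 7.71 CPM in water plants (median 2.38), against 0 to 0.936 CPM in starting plants (median 0.206), CBF2 at 1.72 to 15.4 CPM in water plants (median 4.60), against 0.138 to 2.64 CPM in starting plants (median 0.701) and CBF3 at 6.11 to 27.6 CPM in water plants (median 17.0), against 1.77 to 4.49 CPM in starting plants (median 3.07). Their log2 fold changes were 3.20 ± 0.70, 2.68 ± 0.64 and 2.42 ± 0.31, and CBF2 no longer passed when all libraries were thinned to 2098593 counts (1.65, edgeR adjusted p = 0.091). Of the 3 only CBF3 had groups that did not overlap, and the 3 genes are near-identical copies. MYB73, a repressor-type MYB of stress responses, stood at 26.7 to 41.5 CPM in water plants (median 30.7), against 6.74 to 14.9 CPM in starting plants (median 13.2). RAV1, an AP2 and B3 domain factor that restrains growth, was at 34.8 to 60.7 CPM in water plants (median 42.7), against 18.4 to 27.9 CPM in starting plants (median 23.6), a change of 0.97 ± 0.12. ICE1, the activator upstream of CBF3, was lower, at -0.44 ± 0.10. TEM1, a repressor of flowering, was called at 0.49 ± 0.16, but without water replicate 6 it stood at 0.34 (edgeR adjusted p = 0.089). CAMTA3, a calmodulin-binding activator of CBF genes, rose by 0.55 ± 0.16.

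Genes of light stress and UV-B were lower. Of 23 tested members 17 were lower and 4 higher, with a median log2 fold change of -1.23. ELIP2, a thylakoid protein that binds pigments under excess light, stood at 3.82 to 8.70 CPM in water plants (median 5.68), against 112 to 201.6 CPM in starting plants (median 137). Its relative ELIP1 stood at 7.82 to 14.4 CPM in water plants (median 11.1), against 134 to 238.5 CPM in starting plants (median 168). Each starting library exceeded each water library by more than 9-fold for both genes. BBX31, a microProtein of the B-box family, was counted at 0.414 to 3.05 CPM in water plants (median 1.55), against 7.87 to 29.6 CPM in starting plants (median 18.23), and its relative BBX30 at 0.89 to 3.71 CPM in water plants (median 2.57), against 13.96 to 23.9 CPM in starting plants (median 18.3). HYH, the close homologue of the light regulator HY5, was at 5.26 to 14.8 CPM in water plants (median 10.1), against 53.3 to 74.3 CPM in starting plants (median 61.7), with a log2 fold change of -2.71 ± 0.15 (edgeR adjusted p = 5.8e-21). STH, a B-box partner of COP1, fell by 2.29, and SIG5, a sigma factor that carries light and clock signals into the chloroplast, by 1.89. VTC2, the GDP-galactose phosphorylase that commits carbon to ascorbate, stood at 80.6 to 95.8 CPM in water plants (median 85.1), against 167 to 235.9 CPM in starting plants (median 212.6). Higher genes were NPQ1, the violaxanthin de-epoxidase of heat dissipation, at 64.9 to 95.2 CPM in water plants (median 88.0), against 32.8 to 51.5 CPM in starting plants (median 40.01), and BBX22 at 43.3 to 53.9 CPM in water plants (median 47.9), against 12.8 to 24.9 CPM in starting plants (median 19.7).

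Flavonoid genes were lower along the length of the pathway. In the early list 14 of 15 tested genes were lower and none higher, with a median of -1.39. CHS and CHI, the first enzymes of flavonoid synthesis, changed by -2.23 ± 0.12 and -1.62 ± 0.12. CHIL, a chalcone isomerase-like protein that aids CHS, stood at 12.5 to 26.7 CPM in water plants (median 16.4), against 60.9 to 78.5 CPM in starting plants (median 68.2). PAL1, which opens the phenylpropanoid pathway, was at 14.1 to 28.8 CPM in water plants (median 22.1), against 59.6 to 72.9 CPM in starting plants (median 67.1), and its relative PAL2 at 28.1 to 40.6 CPM in water plants (median 38.6), against 65.7 to 77.7 CPM in starting plants (median 69.5). UGT78D2, a flavonoid 3-O-glucosyltransferase, was at 5.44 to 13.6 CPM in water plants (median 10.7), against 39.5 to 53.5 CPM in starting plants (median 49.5), and FLS1, which makes flavonols, fell by 1.39. For 13 of the 15 genes the libraries did not overlap. Of 12 late anthocyanin genes 7 were lower and 1 higher. DFR, the first late enzyme, stood at 5.96 to 14.4 CPM in water plants (median 7.50), against 31.5 to 98.8 CPM in starting plants (median 52.1), and LDOX, which follows it, at 6.30 to 18.8 CPM in water plants (median 10.4), against 40.02 to 97.0 CPM in starting plants (median 65.7). Among their regulators, PAP1 gave -0.78 ± 0.30 (edgeR adjusted p = 0.051), PAP2 -1.93 ± 0.59 (0.011), EGL3 -0.53 ± 0.50 (0.5) and TTG1 0.16 ± 0.12 (0.38), and of these only PAP2 passed, though not without water replicates 6 and 7 (-1.63). The higher call of the list was lost without starting replicate 3, 4 or 8 or water replicate 7.

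Chlorophyll synthesis genes moved in both directions. Of 27 tested genes 5 were higher, 6 lower and the median was -0.06. PORA and PORB, which reduce protochlorophyllide in the light, stood far above their starting levels, PORA at 13.5 to 30.3 CPM in water plants (median 19.4), against 0.156 to 3.27 CPM in starting plants (median 2.03) and PORB at 1029.5 to 1354 CPM in water plants (median 1183), against 185 to 285 CPM in starting plants (median 223.3). The log2 fold changes were 3.38 ± 0.26 and 2.39 ± 0.06, and both windows hold the evening element. PORC, the remaining isoenzyme, was at 227.2 to 269 CPM in water plants (median 253), against 245 to 280.2 CPM in starting plants (median 263), a change of -0.06 ± 0.06 that did not pass (edgeR adjusted p = 0.5), though PORC lies outside the naming rule and was chosen after its value was seen. HEMA1, the glutamyl-tRNA reductase that starts the pathway, and GUN4, which aids the magnesium chelatase, were lower, at -0.68 ± 0.07 and -0.71 ± 0.07 with no overlap.

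**Figure D3:**
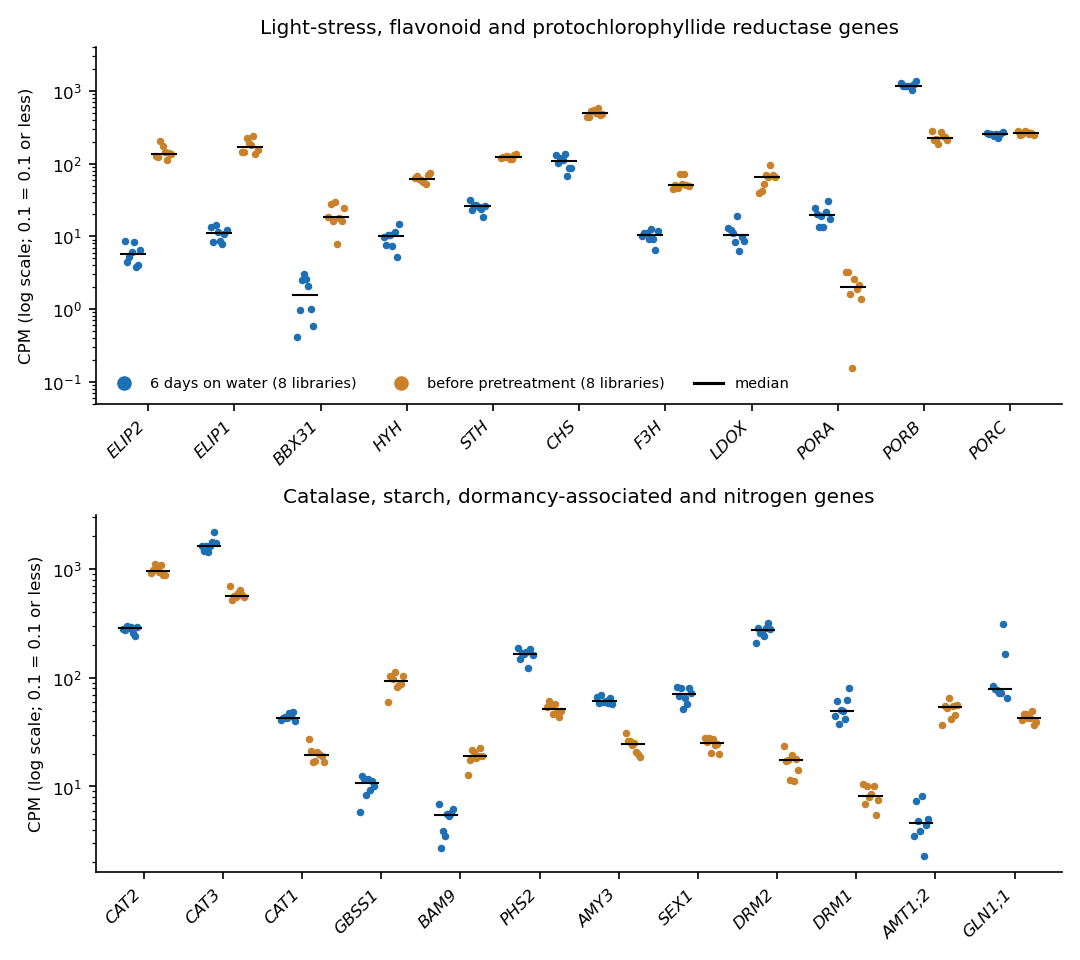
CPM on a log axis in each water library (blue, left) and each starting library (orange, right), with group medians as bars, for light-stress, flavonoid and POR genes (upper panel) and for catalase, starch, dormancy-associated and nitrogen genes (lower panel). Within the POR family PORA and PORB are apart while PORC overlaps, and within the catalases CAT2 lies below and CAT3 and CAT1 lie above the starting libraries.

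Genes of the light reactions were mostly higher and those of carbon fixation mostly lower, by small amounts. Of 26 tested genes for photosystem cores and electron transport 14 were higher and 1 lower, with a median log2 fold change of 0.19. Of 21 antenna genes 11 were higher and 5 lower, and of 23 Calvin cycle genes 1 was higher and 16 lower, with a median of -0.29. PSAG, a small subunit of photosystem I, stood at 5689 to 7967 CPM in water plants (median 6617), against 4386 to 4969 CPM in starting plants (median 4777), and PSAF, a plastocyanin docking subunit, at 7074 to 9021 CPM in water plants (median 7913), against 6029 to 6493 CPM in starting plants (median 6155). Neither pair of sets overlapped, although the log2 fold changes were only 0.49 ± 0.06 and 0.36 ± 0.04. LHCA3 and LHCA1, antenna proteins of photosystem I, rose by 0.40 ± 0.05 and 0.31 ± 0.05. LHCB1.4 gave 1.197 ± 0.07, the largest rise among the antenna genes, but the LHCB1 copies are near-identical and reads could be split among them. LHCB4.3, a variant of the minor antenna CP29, was lower, at 127 to 193 CPM in water plants (median 159), against 224.6 to 350.0 CPM in starting plants (median 299). The 5 lower antenna calls became 3 without water replicate 3, 5, 6 or 7 or starting replicate 1, 3, 4, 5, 6 or 7, and 2 without water replicates 6 and 7.

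In the Calvin cycle the aldolase FBA1 changed most, at 741 to 1015 CPM in water plants (median 877), against 1719 to 1959 CPM in starting plants (median 1836), and its relative FBA2 was at 2187 to 2823 CPM in water plants (median 2604), against 3638 to 3867 CPM in starting plants (median 3727). The groups were apart for both, with log2 fold changes of -1.07 ± 0.05 and -0.54 ± 0.05. GAPA, a glyceraldehyde 3-phosphate dehydrogenase subunit, was lower, at -0.56 ± 0.05, SBPASE, which commits carbon to regeneration, at -0.45 ± 0.05 and PRK, which makes ribulose bisphosphate, at -0.42 ± 0.05. Photorespiration, which recycles the product of rubisco's oxygenation, was lower in 11 of 12 genes, with a median of -0.50. GOX1, a peroxisomal glycolate oxidase, was counted at 613 to 752 CPM in water plants (median 723), against 1116 to 1352 CPM in starting plants (median 1186), and HPR, the hydroxypyruvate reductase, at 369 to 529 CPM in water plants (median 473), against 681 to 820.1 CPM in starting plants (median 726). GLDP1 and GLDP2, the glycine decarboxylase P proteins of mitochondria, fell by 0.75 and 0.94. The 1 gene that did not pass was AT1G80380, at -0.10 ± 0.06 (edgeR adjusted p = 0.23). AT5G36790, a phosphoglycolate phosphatase with a near-identical copy, is uncertain: its starting libraries held 62.1 and 33.5 CPM in 2 cases and at most 3.98 CPM in the others, and its water libraries 0.954 to 5.03 CPM. Its fold change of -2.47 ± 0.54 was -1.45 without starting replicate 3, the higher of those libraries.

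The catalases, which break down the hydrogen peroxide of glycolate oxidation, did not move as a family. CAT2, the main leaf isoform, stood at 244 to 303 CPM in water plants (median 286), against 879 to 1107 CPM in starting plants (median 953). CAT3 was at 1426 to 2214 CPM in water plants (median 1639), against 515 to 705 CPM in starting plants (median 572), and CAT1 at 40.3 to 48.3 CPM in water plants (median 42.9), against 16.7 to 27.4 CPM in starting plants (median 19.5). The log2 fold changes were -1.80 ± 0.07, 1.52 ± 0.08 and 1.16 ± 0.09, each with no overlap, and CAT3 holds the evening element. In the list of copper proteins, superoxide dismutases and catalases 3 of 16 genes were higher and 7 lower, among the lower ones the iron superoxide dismutase FSD1 (-0.39 ± 0.06) and the copper and zinc enzyme CSD2 (-0.70 ± 0.14).

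Genes of starch breakdown were mostly higher, and those of starch synthesis were called in both directions. Of 17 breakdown genes 10 were higher and 3 lower, with a median log2 fold change of 0.93. AMY3, a chloroplast alpha-amylase, was counted at 57.2 to 69.0 CPM in water plants (median 60.6), against 18.7 to 31.0 CPM in starting plants (median 24.8), PHS1, the chloroplast phosphorylase, at 80.3 to 121 CPM in water plants (median 102), against 33.3 to 62.1 CPM in starting plants (median 41.0) and ISA3, a debranching enzyme, at 14.1 to 23.8 CPM in water plants (median 21.1), against 2.302 to 8.58 CPM in starting plants (median 5.94). PWD and DPE1, which phosphorylate glucan and disproportionate short chains, rose by 1.49 ± 0.14 and 1.56 ± 0.14. PHS2 and SEX1 rose by 1.67 ± 0.09 and 1.51 ± 0.10. BAM9, a beta-amylase without known catalytic activity, stood lower, at 2.72 to 6.84 CPM in water plants (median 5.44), against 12.7 to 22.6 CPM in starting plants (median 19.1). In synthesis 4 of 17 genes were higher and 3 lower. GBSS1, the granule-bound synthase that makes amylose, was at 5.80 to 12.6 CPM in water plants (median 10.7), against 60.4 to 113 CPM in starting plants (median 92.9), a log2 fold change of -3.19 ± 0.14 (edgeR adjusted p = 2.4e-25). SS4, which initiates granules, and the branching enzyme SBE2.1 were higher by 0.91 ± 0.12 and 0.92 ± 0.15.

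Genes known to be induced in darkness or sugar starvation were higher in 14 of 23 cases and lower in 1, with a median of 0.55. The lower call became 2 without starting replicate 5 or water replicate 6. DRM2, a dormancy and auxin associated protein, had the highest fold change among called genes with a mean of at least 10 CPM in one group, at 209.5 to 318 CPM in water plants (median 275), against 11.3 to 23.7 CPM in starting plants (median 17.35). Its water libraries exceeded its starting libraries by more than 8-fold in the closest pair, and the log2 fold change was 4.05 ± 0.16. DRM1 stood at 37.9 to 80.1 CPM in water plants (median 49.8), against 5.43 to 10.6 CPM in starting plants (median 8.23), and TPS11, a trehalose phosphate synthase-like protein, at 10.7 to 25.7 CPM in water plants (median 16.2), against 3.26 to 9.31 CPM in starting plants (median 5.41). The transcription factors BZIP53 and BZIP1, which act in low energy, rose by 0.74 ± 0.09 and 0.97 ± 0.20. In the list of sucrose, raffinose and sugar transport 7 of 24 genes were higher and 6 lower. TMT1, a vacuolar sugar carrier, was at 12.3 to 21.5 CPM in water plants (median 16.6), against 3.44 to 8.11 CPM in starting plants (median 5.73), STP13, a hexose importer, rose by 1.84 ± 0.25, and SPS4F, the leaf sucrose phosphate synthase of the night, and GolS1, a galactinol synthase, fell by 0.85 and 1.32.

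Nitrogen genes moved in both directions. Of 23 nitrate genes 8 were lower and 3 higher, with a median of -0.30. NIA1, a nitrate reductase, stood at 13.3 to 18.6 CPM in water plants (median 17.0), against 42.4 to 66.3 CPM in starting plants (median 55.2), and NIA2, the other one, at 73.6 to 111 CPM in water plants (median 93.4), against 213.8 to 297 CPM in starting plants (median 271). NRT1.1, a nitrate sensor and carrier, and NRT1.5, which loads nitrate into the xylem, fell by 0.76 and 1.57. The groups did not overlap for these 4 genes. Among 16 ammonium and amide genes 5 were higher and 5 lower. AMT1;2, an ammonium importer, was at 2.29 to 8.12 CPM in water plants (median 4.62), against 36.8 to 65.8 CPM in starting plants (median 53.9), a log2 fold change of -3.38 ± 0.18. AMT2, another ammonium transporter, and NRT1.7, a nitrate carrier of the phloem, were higher, by 0.90 ± 0.22 and 0.40 ± 0.13, the second not without water replicate 1 or with thinned libraries, and AMT1;1 gave 0.15 ± 0.16 with no call. The glutamine synthetases went in both directions, GLN2 of the chloroplast at -0.41 ± 0.05 and GLN1;2 of the cytosol at -0.81 ± 0.07, while GLN1;1 was higher, at 64.7 to 316 CPM in water plants (median 78.2), against 36.9 to 49.3 CPM in starting plants (median 42.8). Its fold change of 1.44 ± 0.21 became 0.83 without water replicates 6 and 7, whose values were 316 and 167 CPM. The asparagine synthetases split too, ASN2 at -0.996 ± 0.10 and ASN1, the dark-induced one, at 1.51 ± 0.32, and GDH2, a glutamate dehydrogenase, gave 0.81 ± 0.15.

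Sulfate and iron genes leaned lower, and phosphate genes did not lean. Of 17 sulfate genes 7 were lower and none higher. APR2, the main APS reductase, was counted at 52.5 to 83.3 CPM in water plants (median 56.7), against 144 to 235.7 CPM in starting plants (median 199), and APR3 at 10.97 to 19.7 CPM in water plants (median 14.98), against 22.6 to 33.1 CPM in starting plants (median 28.1). APS1, the ATP sulfurylase before them, and SIR, the sulfite reductase after them, fell by 0.56 and 0.37. Of 22 iron genes 12 were lower and 1 higher. NAS1, NAS3 and NAS4, which make the metal chelator nicotianamine, changed by -1.60 ± 0.18, -0.84 ± 0.18 and -1.03 ± 0.17. FER1, a chloroplast ferritin that stores iron, stood at 63.8 to 181 CPM in water plants (median 114), against 183 to 303 CPM in starting plants (median 246). NEET, an iron-sulfur protein, was at 207.97 to 285 CPM in water plants (median 243), against 338 to 452 CPM in starting plants (median 426). Of 20 phosphate starvation genes 1 was higher and 3 lower, led by G3Pp1, a glycerol 3-phosphate permease, at 2.72 to 7.31 CPM in water plants (median 5.48), against 12.3 to 31.2 CPM in starting plants (median 23.0). The higher call was lost without starting replicate 2, 5 or 7 or water replicate 4 and joined by 1 more without starting replicate 4.

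Water channels were mostly lower. Of 17 tested aquaporins 12 were lower and 2 higher (1 without water replicate 2), with a median of -0.35. PIP2;3 of the plasma membrane was counted at 14.8 to 20.8 CPM in water plants (median 17.0), against 81.7 to 119.7 CPM in starting plants (median 88.3), a log2 fold change of -2.47 ± 0.17. PIP2;2, PIP1;1 and PIP2;1 fell by 1.08, 0.74 and 0.69, each with no overlap. PIP2;3 and PIP2;2 are neighbouring copies of close sequence, so their reads could be shared. PIP2;6, abundant in leaf veins, was higher, at 263 to 401 CPM in water plants (median 331), against 209.8 to 227.8 CPM in starting plants (median 221.4). TIP2;2 of the vacuole membrane was lower, at -0.65 ± 0.13. Abscisic acid and proline genes were mixed, with 3 of 25 higher (5 without water replicates 6 and 7) and 7 lower. ABF1, a bZIP activator of the hormone's targets, stood at 18.0 to 29.4 CPM in water plants (median 20.7), against 3.74 to 10.2 CPM in starting plants (median 6.31), HB-12, a homeobox factor, changed by -1.29 ± 0.17, HAB1, a phosphatase that blocks the signal, by -1.27 ± 0.20 and P5CS2, which makes proline, by -0.72 ± 0.10.

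Surface lipid genes were mostly lower while their repressor was higher. Of 18 tested wax and cutin genes 10 were lower and 3 higher. DEWAX, an ERF repressor of wax genes, was counted at 89.1 to 165 CPM in water plants (median 118), against 26.1 to 47.0 CPM in starting plants (median 38.8), and WSD1, the wax ester synthase, at 4.15 to 10.2 CPM in water plants (median 5.99), against 19.1 to 27.9 CPM in starting plants (median 23.8). Both pairs of groups were apart, with log2 fold changes of 1.64 ± 0.12 and -1.83 ± 0.20. CER2, CER3, CER5 and CER6, of wax elongation, alkane formation, wax export and, again, elongation, changed by -0.61 ± 0.08, -0.72 ± 0.12, -0.50 ± 0.08 and -0.42 ± 0.07. Markers of the epidermis, which makes the wax, were lower in 3 of 6 cases and higher in none (1 without water replicate 5). They summed to 515 to 696 CPM in water plants and 705 to 839 CPM in starting plants, and their part in the wax result was not tested. Of 10 tested fatty acid desaturases 3 were higher and 6 lower. FAD4, FAD5, FAD6, FAD7, FAD8 and FAB2 of the plastid were lower, at -1.32 ± 0.13, -0.73 ± 0.07, -0.22 ± 0.06, -0.40 ± 0.06, -0.79 ± 0.11 and -0.59 ± 0.07, and FAD6 no longer passed without water replicates 6 and 7 (-0.16). FAD2 and FAD3 of the endoplasmic reticulum were higher by 0.26 ± 0.06 and 0.38 ± 0.08. ADS2, a desaturase known from cold membranes, rose to 219.2 to 310.4 CPM in water plants (median 284) against 79.3 to 109 CPM in starting plants (median 90.11), while ADS1 gave -0.10 ± 0.20 (edgeR adjusted p = 0.8).

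Growth lists held changes in both directions. Of 26 PIF and auxin genes 16 were higher and 4 lower, with a median of 0.47. PIF4, a light- and temperature-sensitive bHLH activator of elongation, was at 57.4 to 78.3 CPM in water plants (median 61.9), against 24.4 to 45.3 CPM in starting plants (median 37.6). IAA29, one of its targets and an auxin repressor protein, stood at 10.5 to 23.3 CPM in water plants (median 17.0), against 0.905 to 4.82 CPM in starting plants (median 3.95), and IAA19 and IAA3 rose by 1.196 ± 0.19 and 0.98 ± 0.12. IAA17 went down, to 25.9 to 43.9 CPM in water plants (median 30.9) against 71.9 to 102 CPM in starting plants (median 86.1). SAUR19, a small auxin-induced promoter of cell expansion, was at 4.24 to 11.3 CPM in water plants (median 8.32), against 0.565 to 3.85 CPM in starting plants (median 1.63), with close copies beside it in the genome. Of 13 gibberellin genes 7 were higher and none lower, among them GASA6, a small gibberellin-induced peptide, at 442 to 759.5 CPM in water plants (median 596), against 182 to 324 CPM in starting plants (median 265), the receptor GID1A (0.99 ± 0.17) and the repressor GAI (0.69 ± 0.12).

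Wall-loosening enzymes split evenly, with 9 of 24 higher and 10 lower. EXPA8 and EXPA11 were higher, by 1.64 ± 0.11 and 1.105 ± 0.12, and EXPA1 and EXPA10 lower, at -0.69 ± 0.10 and -0.86 ± 0.12. Among the xyloglucan enzymes XTH9 and XTH8 were higher, at 0.73 ± 0.06 and 0.996 ± 0.14, and XTH31 and XTH7 lower, at -1.05 ± 0.12 and -0.75 ± 0.08. These 8 genes had no overlap between groups. Of 20 lignin and cellulose genes 3 were higher and 6 lower. CESA1 and CESA3, synthases of primary wall cellulose, rose by 0.59 ± 0.08 and 0.38 ± 0.07, and CAD4 and CCR1, of lignin monomers, fell by 1.01 and 0.70. In the brassinosteroid list 3 of 10 genes were higher and none lower (1 lower without water replicate 7), the biosynthetic CPD (0.58 ± 0.09) and BR6OX2 (0.95 ± 0.16) and the receptor BRI1 (0.50 ± 0.12). Cytokinin response genes gave 2 higher and 3 lower of 14, and cell division genes 1 higher and 4 lower of 25. The lower cytokinin calls became 1 without water replicate 6 or without starting replicate 1, 3 or 5, and the higher cell division call became 2 without starting replicate 7 or 8 or water replicate 1, 3, 4 or 5. The lower cell division calls became 2 without water replicate 3 or 6 or starting replicate 1, and 1 without water replicate 8.

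In the list of phase change and flowering 4 of 23 genes were higher and 4 lower. SPL3, a promoter of the adult phase that miR156 holds down in young plants, was counted at 9.78 to 19.9 CPM in water plants (median 15.5), against 3.95 to 6.28 CPM in starting plants (median 5.02). SOC1, a MADS factor that gathers flowering signals, stood at 43.5 to 59.6 CPM in water plants (median 48.3), against 20.5 to 40.4 CPM in starting plants (median 28.3). The groups did not overlap, with log2 fold changes of 1.58 ± 0.16 and 0.79 ± 0.10 (edgeR adjusted p = 1.5e-11 and 3.9e-09). FD, the partner of florigen at the shoot tip, was low in both groups, at 1.6 to 7.17 CPM in water plants (median 3.01), against 0.377 to 2.09 CPM in starting plants (median 0.869). SNZ, an AP2-type repressor of flowering, was lower, at 15.1 to 24.6 CPM in water plants (median 17.0), against 26.7 to 42.5 CPM in starting plants (median 34.4). Among flower markers AP3 and SEP3 passed, at 2.19 ± 0.70 and 1.86 ± 0.69, with at most 2.03 and 3.21 CPM in any water library, and when only the 16 libraries were fitted neither passed the filter on low counts. AP3 was not called without water replicate 5, nor SEP3 without water replicate 1, 2, 4 or 8 or starting replicate 1, 3, 4, 6 or 7. The lower calls of the list became 2 without water replicate 3, 6 or 7 or starting replicate 7. In the senescence list, NYC1, which breaks down chlorophyll b, was higher by 0.84 ± 0.08 and ORE1, a NAC activator of leaf ageing, lower, at -1.18 ± 0.24, out of 15 genes of which 2 were higher and 1 lower. The higher calls became 1 without starting replicate 2 or 7 or water replicate 3 or 6, and the lower call became 2 without starting replicate 5 or any water replicate but 6, and 4 without water replicate 6.

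**Figure D4:**
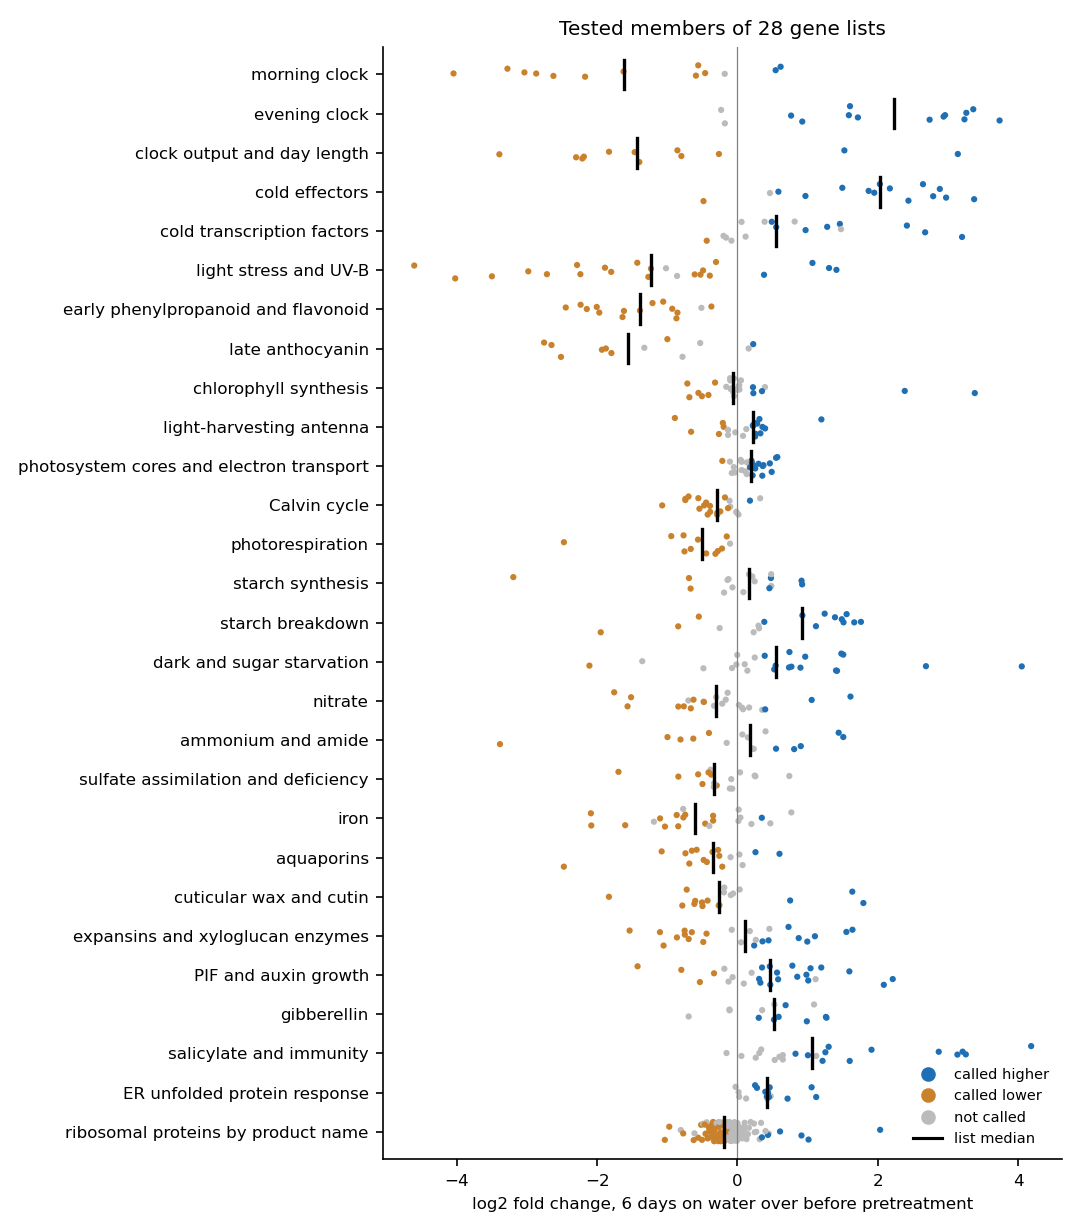
Log2 fold change of water plants over starting plants for each tested member of 28 gene lists, coloured by call at an adjusted p under 0.05, with the list median as a black bar. Morning clock, light-stress and flavonoid genes lie mostly to the left, and evening clock, cold effector and starch breakdown genes mostly to the right. The medians of the antenna, photosystem, Calvin cycle and ribosomal lists lie between -0.29 and 0.22, and that of photorespiration at -0.50.

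Salicylate genes were higher mainly in water replicates 6 and 7. Of 22 tested genes 12 were called higher and none lower, and these became 4 without water replicate 6 (with 1 lower), 3 without replicates 6 and 7 and 6 with only the 16 libraries in the fit. WRKY54, WRKY70 and NIMIN1 stayed called in every alternative that tested them, and with the 16 libraries alone NIMIN1 stood under the filter on low counts. WRKY54, a regulator of salicylate responses, was counted at 9.79 to 75.0 CPM in water plants (median 21.9), against 1.32 to 7.37 CPM in starting plants (median 3.23), with 61.1 and 75.0 CPM in replicates 6 and 7, and the groups did not overlap. Its log2 fold change of 3.14 ± 0.41 became 2.42 without those libraries. NIMIN1, a small protein that binds the receptor NPR1, was at 0.914 to 42.5 CPM in water plants (median 2.94), against 0 to 1.09 CPM in starting plants (median 0.324), with 42.5 and 13.8 CPM in replicates 6 and 7, and its change of 4.19 ± 0.70 became 2.32. WRKY70 gave 1.601 ± 0.28 with all libraries and 0.85 without these 2. PR2, a beta-1,3-glucanase, and DLO1, which hydroxylates salicylate, held 511 and 73.3 CPM in replicate 6 and no more than 9.74 and 3.46 CPM in the 6 libraries other than 6 and 7. Their log2 fold changes of 3.26 ± 0.69 and 3.21 ± 0.81 became 0.94 and 0.87 without replicate 6 and -0.39 and -0.02 without both libraries, and none of these passed. PR1, a secreted marker of salicylate responses, was counted at 2.37 to 814 CPM in water plants (median 13.7), against 5.27 to 90.3 CPM in starting plants (median 24.8), with 814 and 208.7 CPM in replicates 6 and 7. Its change of 1.91 ± 0.71 (edgeR adjusted p = 0.04) became -1.54 without both libraries (edgeR adjusted p = 0.059), so no direction is given for it.

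Among the water libraries, replicate 6 also had the highest mean log2 CPM of the camalexin, jasmonate and unfolded protein response lists. In the aliphatic glucosinolate list its mean of 5.24 lay beside 5.27 in water replicates 2 and 4. In the camalexin and indolic glucosinolate list 3 of 14 genes were higher and 3 lower, and the higher calls, PAD3 and CYP71A13 of camalexin synthesis among them, became 0 without water replicate 6. MYB34, a regulator of indolic glucosinolates, was lower, at -0.86 ± 0.15. Aliphatic glucosinolate genes gave 4 lower of 20, which became 2 without water replicate 2, 4, 6 or 8 or starting replicate 1, 4, 5, 6 or 7. Jasmonate genes gave 5 higher and 2 lower of 19, and the higher calls became 3 without water replicate 6. AOC2, an allene oxide cyclase, was nonetheless apart, at 115 to 208.5 CPM in water plants (median 165), against 57.2 to 94.7 CPM in starting plants (median 73.1), as was VSP1, a storage protein induced by the hormone, at 14.6 to 33.2 CPM in water plants (median 18.9), against 3.303 to 7.97 CPM in starting plants (median 4.79). In the unfolded protein response of the endoplasmic reticulum 10 of 16 genes were higher and none lower, and without replicates 6 and 7 there were 6 higher. PDIL1-1, a disulfide isomerase, stood at 70.0 to 148 CPM in water plants (median 85.2), against 33.1 to 50.5 CPM in starting plants (median 46.1), with replicate 6 highest, and its change of 1.06 ± 0.12 was 0.94 without those libraries.

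**Figure D5:**
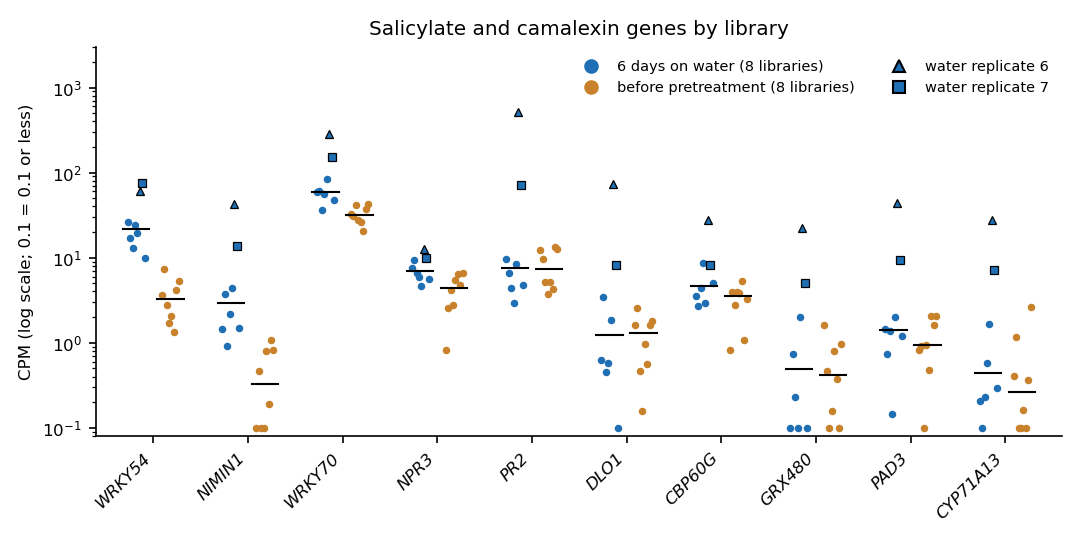
CPM on a log axis for salicylate and camalexin genes in each water library (blue, left) and starting library (orange, right), with water replicate 6 as a triangle, water replicate 7 as a square and medians as bars. For PR2, DLO1, PAD3 and CYP71A13 the other 6 water libraries lie within or close to the starting range, while for WRKY54 all water libraries lie above it.

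The remaining stress lists were small or mixed. Of 13 hypoxia and fermentation genes 5 were higher, led by PDC2, a pyruvate decarboxylase, at 35.2 to 49.8 CPM in water plants (median 43.1), against 4.90 to 12.3 CPM in starting plants (median 7.92), and ADH1, the alcohol dehydrogenase, at 8.09 to 13.3 CPM in water plants (median 9.76), against 2.33 to 9.39 CPM in starting plants (median 4.07). Of 8 heat shock genes 2 were higher and none lower (1 lower without water replicate 2), MBF1C (0.81 ± 0.17) and DREB2A (1.83 ± 0.47), and the chaperones HSP101, HSP90.1 and HSP18.2 gave 0.39 ± 0.46, 0.38 ± 0.44 and -0.71 ± 0.33 with no call. Of 12 touch, calcium and ERF genes 4 were higher, which became 2 without water replicate 6 or starting replicate 2, and none lower, which became 1 without water replicate 6 or 8. ERF2 was the one gene of that list whose groups were apart, at 10.3 to 49.0 CPM in water plants (median 14.2), against 5.29 to 8.19 CPM in starting plants (median 6.89), and its change of 1.45 ± 0.28 was 0.93 without water replicates 6 and 7. Of 7 CC-type glutaredoxins, small redox proteins of nitrate and cytokinin signalling, 4 were lower. AT1G06830 stood at 26.3 to 42.9 CPM in water plants (median 35.8), against 60.2 to 93.7 CPM in starting plants (median 64.4) and AT4G15680 at 1.45 to 7.41 CPM in water plants (median 3.54), against 13.0 to 20.2 CPM in starting plants (median 16.1), and those on chromosome 4 are near-identical copies whose reads could be shared.

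Ribosomal protein genes were lower by small amounts. Of 254 tested genes so named by RefSeq 129 were lower and 6 higher, with a median log2 fold change of -0.19, and 53 were lower with no overlap. The lower calls became 85 without water replicates 6 and 7 and 80 when all libraries were thinned to 2098593 counts. Chloroplast-encoded genes gave 31 lower of 78 with a median of -0.47, and the libraries of the groups overlapped for all 78. The alternative with a transcript length trend removed held no organelle gene. Chloroplast transcripts mostly lack poly(A) tails, and organelle genes took 1.42% to 2.54% of counts in water libraries and 1.86% to 3.28% in starting libraries. Mitochondria-encoded genes gave 1 lower of 17 (2 without water replicate 1 or 6). Of 8 reference genes UBQ10 and GAPC1 were lower, at -0.37 ± 0.05 and -0.28 ± 0.06, and ACT2, YLS8, UBC21, MON1, PP2AA3 and AT4G34270 gave changes between -0.13 and 0.13 that did not pass. Markers of guard cells and their precursors were called lower in 1 of 15 cases, lost without starting replicate 2 or 5 or water replicate 2, 3, 4 or 6, and summed to 206.3 to 267 CPM in water plants and 205.7 to 268 CPM in starting plants. Phloem markers were lower in 1 of 4 cases, lost without starting replicate 1, 2, 5 or 8 or water replicate 2, 4, 6 or 8, and summed to 242 to 298 CPM in water plants and 243 to 283 CPM in starting plants.

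Among the 15 genes at each end of the ranking, several stand outside these lists. AT1G56300, a DnaJ-domain chaperone protein, was counted at 98.6 to 132 CPM in water plants (median 108), against 7.14 to 11.2 CPM in starting plants (median 8.41). Its log2 fold change of 3.64 ± 0.09 had the smallest p of the comparison, which after adjustment was shared with GRP7 (edgeR adjusted p = 8.8e-37). AT5G23240, another DnaJ-domain protein, was at 55.9 to 89.6 CPM in water plants (median 62.0), against 4.95 to 9.80 CPM in starting plants (median 7.66), and AT2G21130, a cyclophilin, at 33.4 to 55.8 CPM in water plants (median 37.8), against 1.77 to 8.58 CPM in starting plants (median 4.33). TPS03, a terpene synthase, rose by 3.14 ± 0.30, and AT2G38465 and AT4G33467, uncharacterized proteins, by 3.44 ± 0.26 and 3.20 ± 0.27. At the lower end CP1, a calcium-binding protein, stood at 18.5 to 28.8 CPM in water plants (median 24.2), against 174 to 303 CPM in starting plants (median 247), a change of -3.34 ± 0.11. AT2G27420, a cysteine proteinase, was at 1.14 to 6.01 CPM in water plants (median 3.64), against 22.1 to 45.7 CPM in starting plants (median 37.1), and AT5G54130, a calcium-binding endonuclease, exonuclease and phosphatase family protein, at 1.21 to 4.80 CPM in water plants (median 2.92), against 17.2 to 30.3 CPM in starting plants (median 24.8). AO, the L-aspartate oxidase that starts NAD synthesis, was at 0.686 to 2.04 CPM in water plants (median 1.17), against 8.26 to 16.1 CPM in starting plants (median 10.2). The libraries of these 10 genes did not overlap between groups.

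Plants kept in ethanol share the starting libraries, so their changes are given side by side and the difference is tested between ethanol and water directly. Against the start, 5302 genes were called in ethanol plants (32%), and between ethanol and water plants 1664 (10%). LNK3 changed by -2.49 in ethanol and -2.62 in water plants, and FKF1 by 3.66 in ethanol and 3.36 in water plants, and neither passed between ethanol and water (difference 0.13 ± 0.13 and 0.30 ± 0.13, edgeR adjusted p = 0.62 and 0.14). For ELF4 the difference passed, at 4.67 in ethanol and 3.74 in water plants (difference 0.93 ± 0.14, edgeR adjusted p = 1.3e-06). NIMIN1 changed by 0.62 in ethanol and 4.19 in water plants (difference -3.57 ± 0.67, edgeR adjusted p = 0.00011), where the water value was 2.32 without water replicates 6 and 7. SAUR19 changed by 0.68 in ethanol and 2.09 in water plants (difference -1.41 ± 0.29, edgeR adjusted p = 0.00046). DRM1 was further from the start in ethanol, at 3.75 in ethanol against 2.69 in water plants (difference 1.07 ± 0.13, edgeR adjusted p = 9.3e-08), as were the nitrate reductase NIA2, at -2.37 in ethanol against -1.52 in water plants (difference -0.85 ± 0.15, edgeR adjusted p = 4.3e-05), and the glutaredoxin AT4G15670, at -4.66 in ethanol against -1.41 in water plants (difference -3.25 ± 0.50, edgeR adjusted p = 4.3e-06). GBSS1 was nearer to the start in ethanol, at -2.36 in ethanol against -3.19 in water plants (difference 0.84 ± 0.15, edgeR adjusted p = 5.7e-05). ORE1 changed by 0.21 in ethanol and -1.18 in water plants (difference 1.39 ± 0.24, edgeR adjusted p = 2.7e-05).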

How the data were processed

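The authors deposited one table of read counts per gene, whole numbers for 27416 Arabidopsis genes in 40 libraries of 5 groups of 8. Per the submitters' processing notes, bcl2fastq, Trimmomatic, HISAT2, featureCounts and DESeq2 were used with the TAIR10 build, while versions, settings and the use of strand are not stated in those notes. From the deposited counts, 16579 genes passed edgeR's filter on low counts. All 40 libraries were fitted in 1 model in R 4.3.3 with edgeR 4.0.16 (TMM normalization, quasi-likelihood F test, Benjamini-Hochberg adjustment over all genes tested), and an adjusted p under 0.05 was called. The SE was taken as |log2 fold change| over the root of the F statistic. Library totals and the precision they give stand in the report. The members and gene lists were chosen with earlier results of these data known, so counts in lists are descriptions.

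Genes were named from a set given by a rule, and not every gene of the set is named. The set held, per list, the 4 tested genes of lowest p (8 where 50% or more were called), all members of lists of up to 12 tested genes and of marker lists, the 15 highest and 15 lowest fold changes among called genes with a mean of at least 10 CPM in one group, and AMT1;2, PORA, ELIP1, ELIP2, CBF1 to CBF3, COR15A, PR1 and PR2. PORC, genes listed for a promoter match and genes outside these sets were picked after their values were seen. Gene symbols, products and the 250-base promoter windows came from RefSeq on the TAIR10.1 assembly, matched by locus tag, and motifs were searched on both strands. The fit was also run on simulated counts, with the same mean in every group but for a set of genes changed in the water libraries. That setting differs from these data, and no result here rests on it. The length alternative covered the 16416 tested genes with a transcript length, which hold no organelle gene. Alternatives were edgeR with DESeq2 size factors, no filter, DESeq2 1.42.0, a fit of the 16 libraries alone, a replicate block, thinning of all libraries to 2098593 counts, removal of organelle genes, removal of a trend with transcript length (a spline with 4 degrees of freedom), a test against a 1.5-fold change, and leaving out each library or water replicates 6 and 7 together. Same-numbered libraries of both groups did not deviate together, so the numbers were not used as pairs.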

Additional observations from a re-analysis of the deposited data

Results flagged for a closer look

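In each group of 8 libraries, the highest or lowest value was flagged where its gap to the next was too large a share of the whole range by Dixon's test at its 95% limit. Of 110 pairs of list and group 10 were flagged. Of 210 pairs of gene and group 11 were flagged, and chance alone flags about 5% of such groups, so the gene values below are about as many as chance gives.

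Most flagged list means belonged to water replicate 6, on the scale of mean log2 CPM. In that library the unfolded protein response list was highest, at 6.621 against 5.408 to 5.666 in the other water libraries, as were the jasmonate list, at 4.529 against 3.207 to 3.805, the heat shock list, at 2.684 against 1.294 to 1.814, and the reference genes, at 6.422 against 6.094 to 6.205. It was lowest for chlorophyll synthesis, at 7.121 against 7.277 to 7.386, for cytokinin response, at 3.81 against 4.024 to 4.154, for fatty acid desaturases, at 6.122 against 6.409 to 6.595, and for leaf mesophyll markers, at 12.64 against 12.83 to 12.98. Among single genes it was highest for PDIL1-1, at 148 CPM against 69.95 to 90.98 CPM, and lowest for ADS2, at 219.2 CPM against 272.6 to 310.4 CPM, and for LNK2, at 9.54 CPM against 17.37 to 25.47 CPM.

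Other water libraries stood lowest for single genes. GI was at 11.6 CPM in replicate 8, against 18.89 to 26.95 CPM in the others. PAL2 was at 28.1 CPM in replicate 7, against 36.46 to 40.57 CPM, and UGT78D2 at 5.44 CPM in replicate 2, against 9.6 to 13.64 CPM.

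Among starting libraries, replicate 1 was lowest for the heat shock list, at 0.4961 against 1.309 to 1.885, and for BAM9, at 12.7 CPM against 17.49 to 22.63 CPM. Replicate 7 was lowest for the CC-type glutaredoxins, at 3.541 against 4.013 to 4.285, and for IAA29, at 0.905 CPM against 3.577 to 4.816 CPM. BBX31 was at 7.87 CPM in replicate 5, against 16.11 to 29.64 CPM, ISA3 at 2.3 CPM in replicate 2, against 4.816 to 8.576 CPM, and PORA at 0.156 CPM in replicate 4, against 1.376 to 3.267 CPM. Why these values stand apart was not tested.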

How the results depend on the processing

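The count of 4067 called genes lay between 3993 and 4192 with DESeq2 size factors, no filter, DESeq2, a replicate block, no organelle genes or the length trend removed. It was 3830 with the 16 libraries alone, 3749 to 3993 when 1 library was left out and 3611 without water replicates 6 and 7. Thinned to 2098593 counts it was 2427 (1289 higher, 1138 lower), where fewer counts entered, and tested against a 1.5-fold change it was 954 (546 higher, 408 lower), by the construction of that test. The median of all genes moved by -0.0028 to 0.024 on the log2 scale over the alternatives. Of the called genes named in the text 150 were called the same way in every alternative that tested them, and 68 calls were lost in the 1.5-fold test. Without water replicates 6 and 7 the log2 fold changes of PR2, DLO1, PAD3 and CYP71A13 turned to -0.39, -0.019, -0.017 and -0.22, and that of PR1 to -1.54, where the higher values of those libraries were removed. With the replicate block 4045 genes were called, 3915 of them shared with the fit without it. Deviations of same-numbered libraries from their group means correlated at -0.028 to 0.043, and 2 of 8 numbers correlated best with their own. The labels do not say whether such libraries share more than the number. Depth limits calls of genes near the 3-count floor, such as CBF1 and the flower markers.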
